A study of Mus musculus with 12 samples.

Results

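Eftud2 and 6 further splicing and exon junction genes were followed across mouse embryo libraries made from carriers of an Eftud2 mutation. The 6 were Txnl4a, Sf3b4, Puf60, Snrpb, Cwc27 and Eif4a3. They are the genes whose human counterparts are known for syndromes with malformations of the face, and they were picked by symbol: 7 of the 24421 rows of the deposited count table, all 7 of which passed the filter on low counts that left 14810 tested genes.

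RNA was sequenced from C57Bl/6 embryos at embryonic day 9.0 (E9.0) and E9.5, with 3 libraries in each of 4 groups. At each stage the groups were Eftud2+/- (heterozygous, which the labels call control) and Eftud2-/- (homozygous). Every library therefore carried at least 1 mutant Eftud2 allele, and no wild-type group is among the samples. The labels describe the mutation as cell-specific and place it in neural crest cells, but they name neither the Cre driver nor the deleted part of the gene. The sampled material is labelled in 3 ways, as neural crest cells, as cranial nerve ganglia, and in the protocol as heads of embryos whose yolk sacs were used for genotyping. The number of embryos in a library is not stated, and nothing says that the 3 libraries of a group came from separate litters, so p-values measure only the spread between these libraries.

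The spliceosome removes introns from pre-mRNA. The U1 and U2 small nuclear ribonucleoproteins (snRNPs) mark the ends of the intron, and the U4/U6.U5 tri-snRNP then joins and is rearranged into the catalytic machine. After splicing, an exon junction complex is left on the mRNA upstream of each new junction. All cells need these proteins, yet loss of a single gene copy in several of them is known for defects of structures that the cranial neural crest builds, such as the jaw, cheekbones and ear. Eftud2 encodes the GTPase of the U5 snRNP, and EFTUD2 is the gene of mandibulofacial dysostosis with microcephaly. Txnl4a encodes another U5 protein (Burn-McKeown syndrome). Sf3b4 encodes a subunit of the SF3B complex of the U2 snRNP (Nager syndrome), and Puf60 a poly-uridine binding factor that helps U2AF at the 3′ splice site (Verheij syndrome). Snrpb encodes SmB, a protein of the Sm ring around the spliceosomal RNAs (cerebro-costo-mandibular syndrome). Cwc27 encodes a cyclophilin of the active spliceosome (retinal degeneration with skeletal and craniofacial anomalies), and Eif4a3 the RNA helicase that anchors the exon junction complex (Richieri-Costa-Pereira syndrome).

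Promoter windows from the RefSeq promoter table used (GRCm38.p6) are shown for 2 of the 7 genes, Eif4a3 and Cwc27. They run from 250 bases before to 50 after the annotated start. Both genes are among the 5 genes that were lower at E9.5 than at E9.0 in homozygous libraries, as described further on. Capitals mark the motif letters that were found. The Eif4a3 window is chr11:119299994-119300293 and the Cwc27 window chr13:104816904-104817203, both on the minus strand.
Eif4a3: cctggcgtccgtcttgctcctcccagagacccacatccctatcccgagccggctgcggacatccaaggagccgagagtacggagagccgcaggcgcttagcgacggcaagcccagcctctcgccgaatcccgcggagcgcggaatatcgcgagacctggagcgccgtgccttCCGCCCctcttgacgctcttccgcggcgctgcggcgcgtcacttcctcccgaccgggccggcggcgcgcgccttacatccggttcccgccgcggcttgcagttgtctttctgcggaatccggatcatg
Cwc27: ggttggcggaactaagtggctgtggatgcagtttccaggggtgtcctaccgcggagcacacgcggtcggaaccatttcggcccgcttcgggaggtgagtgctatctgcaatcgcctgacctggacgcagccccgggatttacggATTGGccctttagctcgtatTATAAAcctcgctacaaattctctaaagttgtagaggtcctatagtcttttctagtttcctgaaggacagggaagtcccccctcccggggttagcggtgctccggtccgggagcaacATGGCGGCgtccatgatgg
The motifs searched, on both strands of 32851 promoter windows of the same length, were TATAAA (held by 13.6% of windows), CCAAT (in 37.4%), CACGTG (in 7.15%), CCGGAA (in 14.9%), ATGGCGGC (in 2.24%) and GGGCGG (in 35.7%). No letters of 1 motif overlapped another in these windows. The Eif4a3 window held GGGCGG as its reverse complement, beginning 78 bases before the start. The Cwc27 window held TATAAA at 86 bases and the reverse complement of CCAAT at 106 bases before the start, and ATGGCGGC, the core letters of the YY1 motif, from base 32 after it. The windows had no motif of the 6 in common. A match of letters is a description of the sequence only.

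All 7 genes were well measured. Levels are CPM, counts relative to the library size after TMM (edgeR's trimmed-mean) scaling, and between genes they are compared per kilobase of merged exon length in the GENCODE M21 annotation of GRCm38. On that scale the mean level over the 12 libraries was highest for Snrpb at 150 CPM per kb and Eif4a3 at 108 CPM per kb. Puf60 at 45.4, Txnl4a at 41.2 and Eftud2 at 29.8 CPM per kb followed, then Sf3b4 at 20.8 and Cwc27 at 10.1 CPM per kb. In this order the library ranges of Puf60 and Txnl4a, of Txnl4a and Eftud2 and of Eftud2 and Sf3b4 overlapped, and those of the other neighbours did not. Cwc27 lay at percentile 70.0 of 14709 tested genes with a known length and Snrpb at percentile 98.4, with the other 5 genes between percentiles 85.1 and 97.7. With the length of the longest transcript in place of merged exons, Eftud2 at 74.9 CPM per kb stood above Txnl4a at 45.6 CPM per kb, so the order of these 2 U5 genes depends on the length used. The genes varied little: the highest library was 1.15 times the lowest for Puf60 and 1.5 times the lowest for Sf3b4, with the other 5 genes at 1.30 to 1.46. Within groups, the SD of log2 CPM was 0.0387 for Puf60, 0.0449 for Eftud2 and 0.0486 for Cwc27, against a median of 0.133 over all tested genes. Sf3b4, at 0.152, was the one of the 7 above that median.

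**Figure D1:**
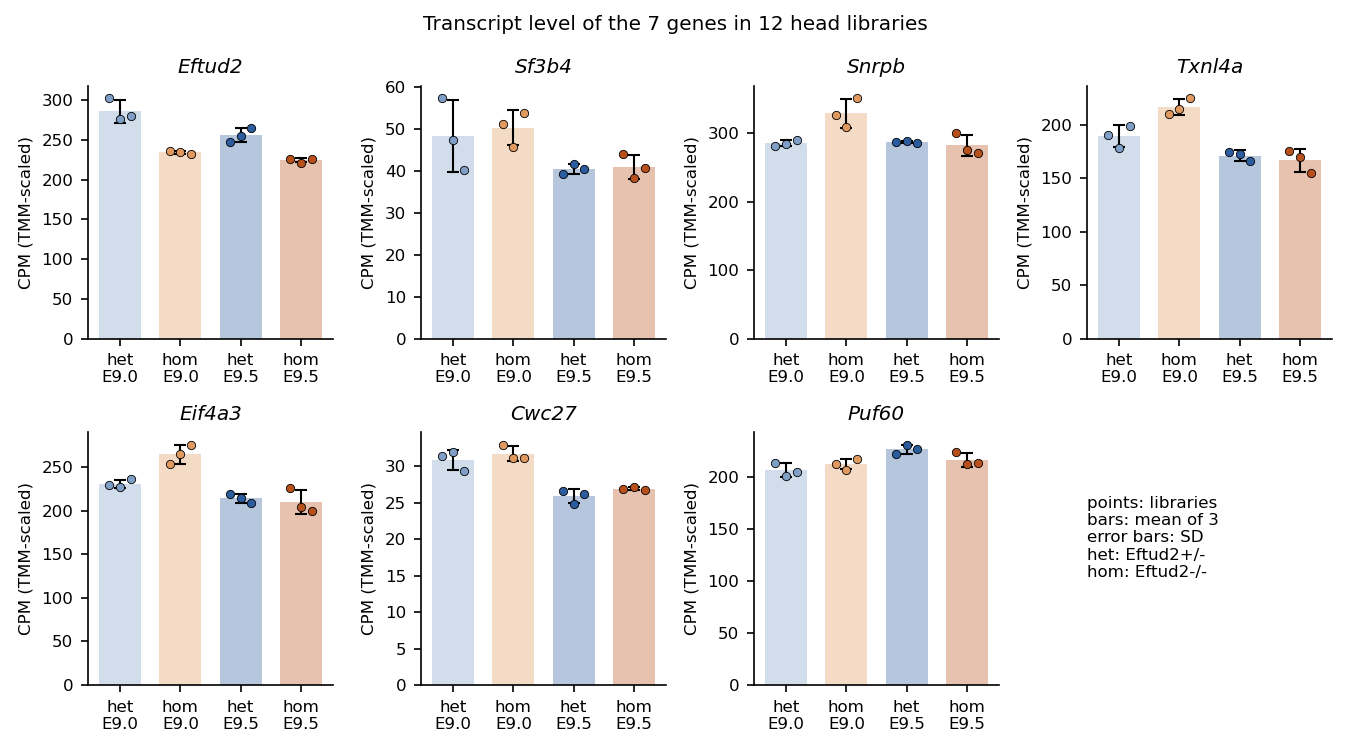
Level of each of the 7 genes in CPM (TMM-scaled, linear axis from 0) in the 12 libraries; points are libraries, bars the mean of 3 and error bars the SD, with het for Eftud2+/- and hom for Eftud2-/-. Eftud2 is lower in all homozygous libraries than in the heterozygous libraries of the same stage, and Snrpb, Txnl4a and Eif4a3 are highest in the homozygous E9.0 libraries.

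The libraries held 13914543 to 31172708 counts. At E9.0 the heterozygous libraries held 19810025 to 24302660 and the homozygous libraries 13914543 to 16590999 counts, so depth separated the genotypes there. Rows with at least 1 count numbered 17311 to 18988 in these heterozygous and 18349 to 19783 in these homozygous libraries. The E9.5 libraries held 24165537 to 31172708 counts. A ribosomal RNA row, Rn45s, held 37.4% of heterozygous E9.0 replicate 1, 6.05% to 16.2% of the other E9.0 libraries and 4.40% to 5.90% of the E9.5 libraries. Scaling by total counts alone moved the all-gene median (log2) to 0.19 for genotype at E9.0, to 0.38 for stage in heterozygous and to 0.18 for stage in homozygous libraries, and changes are read against that shift. For the labelled cells, 14 neural crest genes summed to 553 to 1020 CPM and 11 cranial ganglion genes to 85.9 to 220 CPM per library. Of the defining crest genes, Sox10 and Foxd3 were low within that sum, above all at E9.5. Tfap2b did not fall with stage in heterozygous libraries. It was at 30.2 to 33.5 CPM in heterozygous and 16.7 to 20.9 CPM in homozygous E9.0 libraries. Its E9.5 levels were 34.3 to 38.9 CPM in heterozygous and 14 to 17.7 CPM in homozygous libraries. Sox10 stood at 28.4 to 43.9 CPM in heterozygous and 19.5 to 27.2 CPM in homozygous E9.0 libraries, and at 7.65 to 10.2 and 2.89 to 4.96 CPM at E9.5. Foxd3 stood at 6.65 to 10.6 and 7.52 to 9.39 CPM at E9.0, and was near 0 at E9.5, at 1.58 to 2.99 and 0.30 to 1.08 CPM. The libraries also held other cells, with 8 neural progenitor genes at 1030 to 1800 CPM in sum. Between genotypes, 8 endothelial genes summed to 262 to 276 CPM in homozygous against 220 to 240 CPM in heterozygous E9.0 libraries (8 of 8 higher, 0 called). At E9.5 they summed to 279 to 314 against 148 to 214 CPM (8 of 8 higher, 6 called). The 14 neural crest genes summed to 888 to 957 against 922 to 1020 CPM at E9.0 (11 lower, 1 called) and to 553 to 684 against 736 to 787 CPM at E9.5 (12 lower, 6 called). The 11 cranial ganglion genes summed to 85.9 to 87.2 against 87.4 to 88.5 CPM at E9.0 (6 higher and 5 lower, 0 called). At E9.5 they summed to 161 to 167 against 190.0 to 220.0 CPM (4 higher and 7 lower, 3 called, all lower). Of these, Isl1 was higher in homozygous libraries, at 16.1 to 18.1 against 12.2 to 13.7 CPM at E9.0. Its E9.5 levels were 20.6 to 24.3 against 16.1 to 19.8 CPM. Neurog1 stood at 1.95 to 2.92 against 3.08 to 3.38 CPM at E9.0. For E9.5 it stood at 5.53 to 7.49 against 6.77 to 9.6 CPM. The 7 heart muscle genes summed to 110 to 330.0 against 64.8 to 223 CPM at E9.0 (6 higher, 0 called) and to 2230 to 2970 against 1840 to 2510 CPM at E9.5 (7 higher, 1 called). The 8 erythroid genes summed to 536 to 1170 against 643 to 1140 CPM and to 2780 to 5100 against 3960 to 5190 CPM (6 of 6 tested lower and 0 called at each stage). Between stages, 8 primitive erythroid genes summed to 536 to 1170 CPM at E9.0 and to 2780 to 5190 CPM at E9.5, with 2 of the 8, the near-identical adult globins Hba-a1 and Hba-a2, at 0 in all E9.0 libraries and 1 of this pair at 0 in each E9.5 group. Counts of near-identical copies are uncertain, so these zeros are not read as a stage difference. The sum of 7 heart muscle genes was 64.8 to 330.0 CPM at E9.0 and 1840 to 2970 CPM at E9.5, and that of the neural progenitor genes 1620 to 1800 CPM and 1030 to 1260 CPM. The part of cell composition, of ribosomal RNA and of library depth in the results below was not tested. In bulk libraries fewer cells of a type and less RNA per cell cannot be told apart.

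Eftud2 (ENSMUSG00000020929, chr11:102838473-102880985, minus strand, GRCm38) was lower in homozygous libraries, and its log2 difference was called at E9.0 and over both stages together. It stood at 302, 276 and 279 CPM in heterozygous and 236, 235 and 232 CPM in homozygous E9.0 libraries. At E9.5 it stood at 248, 255 and 265 CPM in heterozygous and 226, 221 and 226 CPM in homozygous libraries. No homozygous library of either stage reached the lowest of the 6 heterozygous libraries. The homozygous level was 82.0% of the heterozygous level at E9.0 (95% interval 75.8% to 88.7%; log2 fold change −0.29 ± 0.05 SE, edgeR quasi-likelihood adjusted p 0.0193). Without heterozygous replicate 1, homozygous replicate 1 or homozygous replicate 3 that adjusted p was 0.0645, 0.0601 and 0.0713, and under total-count scaling the change was −0.08 (adjusted p 0.751). With only the 2 groups compared in the fit the adjusted p was 0.141. At E9.5 the level was 87.8% (81.2% to 94.9%; −0.19 ± 0.05, adjusted p 0.0906, edgeR), which did not pass the threshold. Averaged over both stages it was 84.8% of the heterozygous level (80.3% to 89.7%; −0.24 ± 0.04, adjusted p 0.00214, edgeR). That averaged call was kept in all 12 fits that left out 1 library and was lost under total-count scaling (−0.14, adjusted p 0.619).

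An exact permutation test of Eftud2 alone, with genotype labels exchanged within each stage, used the 12 levels without a model. The mean log2 difference was −0.24, and its two-sided p of 0.005 is the smallest that the 400 arrangements can give. With total counts only the difference was −0.13 (exact p 0.1), and with total counts after removing Rn45s it was −0.22 (exact p 0.005). The counts sum over all exons of a gene, so transcripts that lack only a deleted part would still be counted. The labels place the mutation in neural crest cells, and heads hold other cells as well. Of the merged Eftud2 exon length, 26.9% is shared with the lincRNA Gm26668 on the opposite strand, which has no row of its own, and whether the authors counted by strand is not given in the sources used here.

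A ratio of genes within a library does not depend on the scaling factor. Eftud2 was therefore also set against the geometric mean of the other 6 genes. At E9.0 this ratio was 2.33, 2.24 and 2.29 in heterozygous libraries, against 1.74, 1.78 and 1.64 in homozygous ones. Its E9.5 values were 2.12, 2.18 and 2.29 in the heterozygous and 1.87, 1.95 and 2.02 in the homozygous libraries. The genotypes did not overlap at either stage, and the 3 homozygous E9.0 libraries lay below the 3 homozygous E9.5 ones. The ratio was lower in homozygous libraries by a log2 difference of −0.41 at E9.0 and −0.17 at E9.5, on average to 81.7% of the heterozygous ratio. At E9.0 the difference joins a lower Eftud2 with higher values of Snrpb, Txnl4a and Eif4a3, which are given next. With the median of the other 6 genes in place of their mean the average log2 difference was −0.28, and without Txnl4a it was −0.29.

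**Figure D2:**
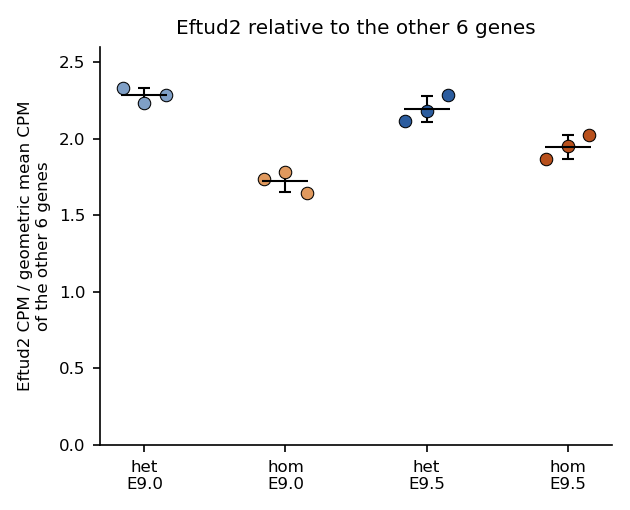
Eftud2 CPM divided by the geometric mean CPM of the other 6 genes in each library (linear axis from 0); points are libraries, horizontal lines the mean of 3 and error bars the SD. The homozygous libraries lie at 1.64 to 1.78 at E9.0 and 1.87 to 2.02 at E9.5, below all heterozygous libraries, which lie at 2.12 to 2.33.

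From E9.0 to E9.5 Eftud2 fell in heterozygous libraries by 0.16 ± 0.05 (log2; adjusted p 0.0279, edgeR). In homozygous libraries the stage difference was −0.06 ± 0.05 (adjusted p 0.391, edgeR). The difference between the genotype effects of both stages was 0.10 ± 0.08 (adjusted p 0.755, edgeR), so the stage difference was not shown to depend on genotype. The heterozygous call was lost without heterozygous E9.0 replicate 1 (−0.12, adjusted p 0.117), heterozygous E9.5 replicate 1 (−0.14, adjusted p 0.113) or heterozygous E9.5 replicate 2 (adjusted p 0.0619). It was also lost with totals without Rn45s (−0.06, adjusted p 0.386), without a filter on low counts (adjusted p 0.124) and with only the groups compared (adjusted p 0.0641). With total counts only the sign turned (0.22), still below the median shift of all genes.

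At E9.0, Eftud2 was the 1 gene of the 7 that passed the threshold between genotypes, where 0.587% of all tested genes did and 0.155% did in the lower direction. The other 6 had positive estimates from 0.04 to 0.20 at E9.0, and 3 of them, Snrpb, Txnl4a and Eif4a3, had groups that did not overlap, all higher, as did 9.07% of all tested genes; Eftud2 had groups apart in the lower direction, as did 8.20%. The median of the 7 at E9.0 was 0.06, against −0.004 for all tested genes. Averaged over both stages Eftud2 was again the 1 gene of the 7 that passed, where 2.96% of tested genes did, and the other 6 had estimates from −0.01 to 0.09. At E9.5, 0 of the 7 passed, where 1.89% of tested genes did; 1 of the 7, Eftud2, had an unadjusted p under 0.05, as did 1984 of the 14810 tested genes, and DESeq2 called that gene (adjusted p 0.0134). There the median of the 7 was −0.03. For the difference of the genotype effect between stages edgeR called 0 of the 7 and DESeq2 0, where edgeR called 0.0675% of all genes, and 3 of the 7 had an unadjusted p under 0.05, as did 1274 of the 14810 tested genes.

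**Figure D3:**
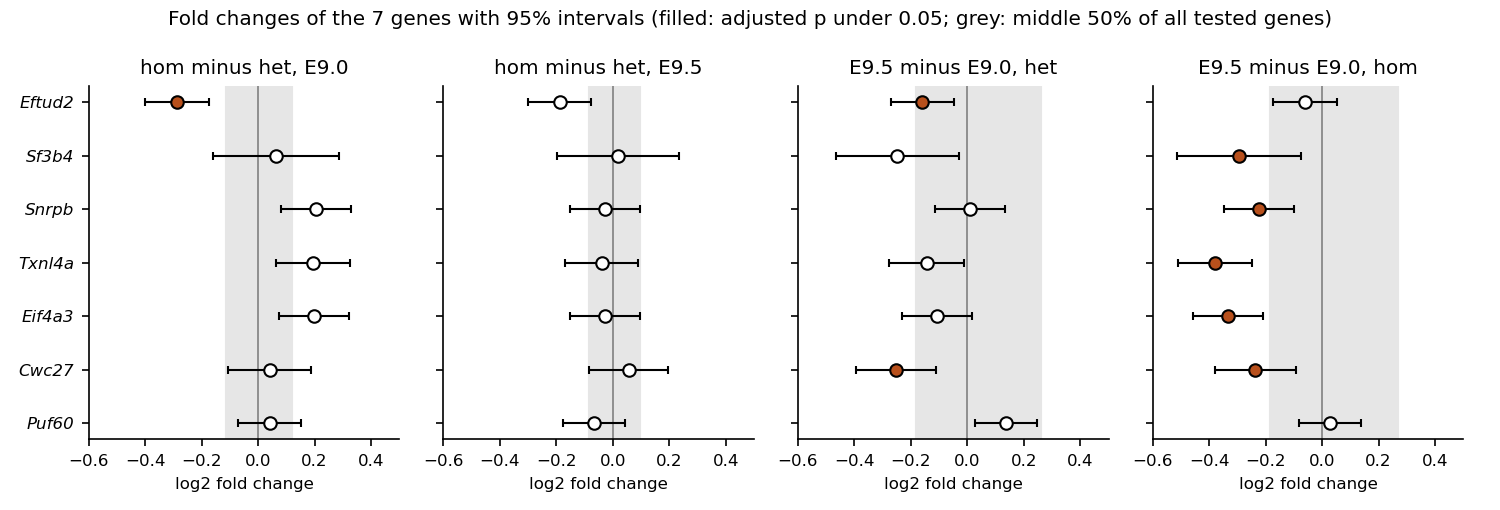
Log2 fold changes of the 7 genes with 95% intervals in 4 comparisons (homozygous minus heterozygous at each stage, E9.5 minus E9.0 in each genotype); filled points passed an edgeR adjusted p of 0.05, and the grey band is the range between the quartiles of all tested genes. Eftud2 is the filled point at E9.0, and 5 of the 7 genes are filled and to the left of 0 between stages in homozygous libraries.

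Txnl4a (ENSMUSG00000057130, chr18:80206795-80225855, plus strand), the small thioredoxin-like protein of the U5 snRNP, had its highest values in homozygous E9.0 libraries. It was at 190, 178 and 199 CPM in heterozygous and 210, 215 and 225 CPM in homozygous E9.0 libraries. At E9.5 the values were 175, 173 and 166 CPM in heterozygous and 176, 169 and 154 CPM in homozygous libraries. The genotypes were apart at E9.0 and overlapped at E9.5. The log2 difference between genotypes was 0.19 ± 0.06 at E9.0 (adjusted p 0.193, edgeR) and −0.04 ± 0.06 at E9.5 (adjusted p 0.870, edgeR), and neither passed the threshold. From E9.0 to E9.5 Txnl4a fell in homozygous libraries by 0.38 ± 0.06 (adjusted p 0.00019, edgeR), the largest stage difference among the 7 genes. In heterozygous libraries the stage difference was −0.14 ± 0.06 (edgeR adjusted p 0.0805, DESeq2 adjusted p 0.0442). Of the merged exon length, 10.1% is shared with Gm16286 on the same strand.

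Sf3b4 (ENSMUSG00000068856, chr3:96172332-96177564, plus strand), of the SF3B complex, was the most scattered of the 7. It was at 57.4, 47.4 and 40.2 CPM in heterozygous and 51.3, 45.7 and 53.9 CPM in homozygous E9.0 libraries. The E9.5 libraries held 39.2, 41.7 and 40.5 CPM in heterozygous and 44.0, 38.2 and 40.8 CPM in homozygous libraries. The genotypes overlapped at both stages. The log2 difference was 0.06 ± 0.11 at E9.0, with a 95% interval of the level from 89.6% to 122% of heterozygous, and 0.02 ± 0.10 at E9.5 (adjusted p 0.837 and 0.968, edgeR). Leaving out heterozygous E9.0 replicate 3 turned the E9.0 estimate to −0.06, and leaving out heterozygous E9.0 replicate 1 moved it to 0.20 (adjusted p 0.352). In homozygous libraries Sf3b4 fell from E9.0 to E9.5 by 0.29 ± 0.10 (adjusted p 0.0367, edgeR), a call kept in 2 of the 6 fits that left out 1 library: it was lost without homozygous E9.0 replicate 1 or 3 and without homozygous E9.5 replicate 2 or 3 (adjusted p up to 0.137). It was also lost with total counts only (−0.12), with totals without Rn45s (adjusted p 0.0791) and without a filter (adjusted p 0.0517). In heterozygous libraries the stage difference was −0.25 ± 0.10 (adjusted p 0.0716, edgeR). This value ranged from −0.37 without heterozygous E9.0 replicate 3, where it passed (adjusted p 0.00721), to −0.11 without heterozygous E9.0 replicate 1, and it passed with the GC and length correction (adjusted p 0.0114).

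Puf60 (ENSMUSG00000002524, chr15:76070182-76080924, minus strand), the 3′ splice site factor, was the steadiest gene and the 1 of the 7 whose mean was higher at E9.5 in both genotypes. It was at 214, 201 and 205 CPM in heterozygous and 213, 208 and 217 CPM in homozygous E9.0 libraries. The E9.5 levels were 222, 232 and 227 CPM in heterozygous and 224, 213 and 214 CPM in homozygous libraries. The genotypes overlapped at both stages. Between genotypes the interval of the level was 95.3% to 111% of heterozygous at E9.0 and 88.6% to 103% at E9.5 (adjusted p 0.789 and 0.670, edgeR). The stage difference in heterozygous libraries was 0.14 ± 0.05 and did not pass the threshold (adjusted p 0.0528, edgeR). It passed with upper quartile scaling, DESeq2, limma-voom, a filter of at least 50 counts on average and the GC and length correction (adjusted p 0.0236 to 0.0385), and when heterozygous E9.0 replicate 1 was left out (adjusted p 0.0377). It passed with total counts and with totals without Rn45s too (0.51 and 0.24), but there the median of all genes stood at 0.38 and 0.11, so these are not read as support. In homozygous libraries the stage difference was 0.03 ± 0.05 (adjusted p 0.699, edgeR).

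Snrpb (ENSMUSG00000027404, chr2:130171414-130179403, minus strand), the Sm ring gene, was nearly flat except in the homozygous E9.0 libraries. It was at 282, 285 and 291 CPM in heterozygous and 327, 310.0 and 352 CPM in homozygous E9.0 libraries. By E9.5 the values were 288, 290 and 286 CPM in heterozygous and 301, 276 and 271 CPM in homozygous libraries. The genotypes were apart at E9.0 and overlapped at E9.5. The log2 difference between genotypes was 0.20 ± 0.06 at E9.0 (edgeR adjusted p 0.150, DESeq2 adjusted p 0.0426) and −0.03 ± 0.06 at E9.5 (adjusted p 0.915, edgeR). From E9.0 to E9.5 Snrpb fell in homozygous libraries by 0.22 ± 0.06 (adjusted p 0.00744, edgeR). In heterozygous libraries the stage difference was 0.01 ± 0.06 (adjusted p 0.929, edgeR). The near-identical Snrpn had 0 to 6 counts in each library. Of the merged Snrpn exon length, 10% is shared on the same strand with Snurf, which has its own row, and 27.3% with Gm38393, which has none. How reads shared between Snrpb and Snrpn, or between Snrpn and these overlapping genes, were counted is not given in the sources used here. A split of reads was not tested, so the low Snrpn counts are uncertain.

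Cwc27 (ENSMUSG00000021715, chr13:104631140-104817142, minus strand), the spliceosomal cyclophilin and the lowest of the 7 per kilobase, fell with stage in both genotypes. It was at 31.5, 31.9 and 29.3 CPM in heterozygous and 33.0, 31.2 and 31.1 CPM in homozygous E9.0 libraries. In E9.5 libraries it stood at 26.7, 24.9 and 26.2 CPM in heterozygous and 26.9, 27.2 and 26.7 CPM in homozygous libraries. Every E9.5 library was below every E9.0 library. The log2 stage difference was −0.25 ± 0.07 in heterozygous (adjusted p 0.00822, edgeR) and −0.24 ± 0.07 in homozygous libraries (adjusted p 0.0126, edgeR), and the homozygous call was lost without homozygous E9.0 replicate 1 (adjusted p 0.0535). With totals without Rn45s both calls were lost (heterozygous −0.15, adjusted p 0.0885; homozygous −0.17, adjusted p 0.0669), and without a filter on low counts the homozygous one was (adjusted p 0.0778). With total counts only the heterozygous value turned to 0.12, which is below the median shift of all genes, and the homozygous value was −0.07 (adjusted p 0.785). The genotypes overlapped at E9.0 and were narrowly apart at E9.5, homozygous higher, which is not read as a difference. Between genotypes the differences were 0.04 ± 0.07 at E9.0 and 0.06 ± 0.07 at E9.5 (adjusted p 0.844 and 0.813, edgeR). Srek1ip1 on the opposite strand shares 5.29% of the Cwc27 exon length.

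Eif4a3 (ENSMUSG00000025580, chr11:119288363-119300089, minus strand), the helicase of the exon junction complex, followed Txnl4a closely. It was at 229, 227 and 236 CPM in heterozygous and 253, 265 and 276 CPM in homozygous E9.0 libraries. For E9.5 the levels were 219, 214 and 209 CPM in heterozygous and 226, 204 and 199 CPM in homozygous libraries. The genotypes were apart at E9.0 and overlapped at E9.5. The log2 difference between genotypes was 0.20 ± 0.06 at E9.0 (adjusted p 0.171, edgeR) and −0.03 ± 0.06 at E9.5 (adjusted p 0.912, edgeR). From E9.0 to E9.5 Eif4a3 fell in homozygous libraries by 0.33 ± 0.06 (adjusted p 0.000384, edgeR). In heterozygous libraries the stage difference was −0.11 ± 0.06 (adjusted p 0.171, edgeR), or −0.15 with the GC and length correction (adjusted p 0.0178). Its relative Eif4a1, the helicase of translation initiation, was at 1007 to 1366 CPM and fell with stage in both genotypes (−0.22 and −0.28, adjusted p 0.0068 and 0.00115, edgeR), and Eif4a2 was at 178 to 277 CPM with no call. Reads that the authors' counting could not place between these relatives would be uncertain.

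Over the stage comparison as a whole, 5 of the 7 genes fell in homozygous libraries (Txnl4a, Eif4a3, Snrpb, Cwc27 and Sf3b4) and 2 in heterozygous libraries (Cwc27 and Eftud2). Falls were called for 15.8% and 16.0% of all tested genes in these comparisons, and rises for 19.6% and 19.2%. The median of the 7 was −0.24 in homozygous and −0.14 in heterozygous libraries, against 0.01 and 0.008 for all tested genes. The calls of Txnl4a, Eif4a3 and Snrpb were kept whichever homozygous library was left out (6 fits) and in 11 of 12 alternative settings. The exception was total-count scaling, with −0.21, −0.16 and −0.05 and no call. The differences of the genotype effect between stages, −0.23 for each of the 3 genes, had unadjusted p of 0.0163, 0.0155 and 0.0130 and did not pass after adjustment over all genes (adjusted p 0.484, 0.482 and 0.448, edgeR). A stage fall that depends on genotype was therefore not shown for these genes. The stage and genotype comparisons share the homozygous E9.0 libraries.

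Likeness between profiles was measured as the root mean square difference of log2 CPM over the 12 libraries, each gene centred on its own mean, against 14809 other genes. Libraries share depth, stage and genotype, so these are descriptions without a test. The gene closest to Txnl4a was Eif4a3, at 0.0387, before Ado and Mrto4, where the median gene was at 0.252. The genes closest to Eif4a3 were Mrto4, Rpl24 and Rps23, at 0.0352 to 0.0355; Mrto4 is a ribosome assembly factor and the other pair are ribosomal proteins. Snrpb was nearest to Ctnnbl1, Snrnp40 and Rpl8, at 0.0313 to 0.0425, of which Ctnnbl1 and Snrnp40 are spliceosome proteins. Snrpb was at 0.0672 from Eif4a3 and at 0.091 from Txnl4a. Eftud2 followed none of the other 6 closely: its nearest member was Puf60 at 0.159, with 3223 genes closer. Its nearest genes were Cntrl, Zfp521 and Gpc1, at 0.0541 to 0.0623. Sf3b4 was nearest to Smpd4, Gsg2 and Dpp9 (0.0637 to 0.0667), Cwc27 to Map4k4, Plekha3 and Fyn (0.0449 to 0.05), and Puf60 to Ctbp1, Tbc1d10b and Cdr2 (0.0357 to 0.0404).

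**Figure D4:**
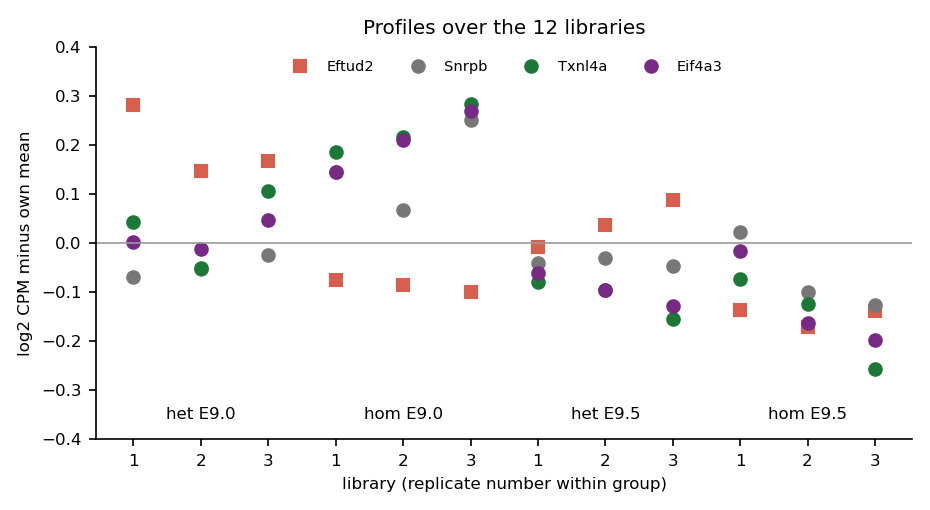
Log2 CPM minus the gene's own mean (vertical axis) for Eftud2 (squares) and Snrpb, Txnl4a and Eif4a3 (circles) in the 12 libraries (horizontal axis, replicate numbers within each group). Snrpb, Txnl4a and Eif4a3 lie above 0 in all 3 homozygous E9.0 libraries, where Eftud2 lies below 0.

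The proteins that work beside these 7 were examined in lists of the same complexes and in a list of 7 splicing genes of human retinal disease, which overlaps them in every gene but Rp9. Together these hold 52 genes, of which 51 were tested (Rbm23 has no row). At E9.0, 3 of the 51 passed between genotypes, all higher in homozygous libraries: Prpf3, Snrnp200 and Sart1. Rises were called for 0.432% of all tested genes. DESeq2 called 6 of the 51 and the GC and length correction 4, all higher, where they called rises for 0.952% and 0.810% of all tested genes. Total counts only left 1, against 0.506% of all tested genes, and leaving out heterozygous replicate 2 or homozygous replicate 3 left 1 as well. Of the 51, 41 had positive and 10 negative estimates, with a median of 0.10 against −0.004 for all tested genes. By list, 1 of 6 U5 proteins and 2 of 9 U4/U6 and tri-snRNP proteins rose, and 0 of 6 SF3B, 0 of 6 other Sm, 0 of 10 exon junction complex, 0 of 7 cyclophilin and 0 of 6 tested 3′ splice site genes passed by edgeR. Of the 7 retinal disease genes 2 rose, Prpf3 and Snrnp200, which are counted in the complexes too. At E9.5, 0 of the 51 passed by edgeR or DESeq2. Among all tested genes edgeR called 1.19% higher and 0.702% lower there, and DESeq2 2.03% and 0.993%. The 51 had 27 positive and 24 negative estimates by edgeR and a median of 0.008. Without homozygous E9.5 replicate 1 they had 21 positive and 30 negative estimates and a median of −0.04. In that fit 1 of the 51 was called lower, as were 0.373% of all tested genes. Averaged over both stages, edgeR called the same 3 genes, Prpf3, Snrnp200 and Sart1, as higher in homozygous libraries, where 1.82% of all tested genes were called higher.

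Prpf3, a U4/U6 protein and a gene of human retinitis pigmentosa, showed the clearest difference. It was at 75.2, 71.6 and 75.3 CPM in heterozygous and 110.1, 105 and 111 CPM in homozygous E9.0 libraries, and at 68.8, 68.5 and 64.4 against 74.9, 76.5 and 75.3 CPM at E9.5. The genotypes did not overlap at either stage. At E9.0 the log2 fold change was 0.56 ± 0.05 (adjusted p 3.55e-05, edgeR), a call kept in each fit that left out 1 library and in all 12 alternative settings. At E9.5 it was 0.17 (adjusted p 0.127, edgeR). Averaged over both stages it was 0.36 ± 0.04 (adjusted p 3.75e-05, edgeR). The difference between the stages was −0.39 ± 0.07 (adjusted p 0.0892, edgeR). That difference passed with DESeq2 (0.000772), with totals without Rn45s (0.0363) and with the GC and length correction (0.0200), and missed in the 8 other alternative settings (adjusted p 0.0558 to 0.545) and in each of the 12 fits without 1 library.

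Snrnp200, the U5 helicase that unwinds U4/U6, was at 447, 453 and 450 CPM in heterozygous and 577, 567 and 601 CPM in homozygous E9.0 libraries. At E9.5 it was at 396, 460 and 413 against 512, 481 and 447 CPM. The genotypes were apart at E9.0 and overlapped at E9.5. The E9.0 fold change was 0.37 ± 0.06 (adjusted p 0.0111, edgeR), a call lost without heterozygous replicate 2 or homozygous replicate 3 (adjusted p 0.0717 and 0.0616) and with total counts only (0.0856), and the E9.5 value was 0.18 (adjusted p 0.199, edgeR). Sart1, which recruits the tri-snRNP, was at 152, 139 and 149 against 170, 174 and 189 CPM at E9.0, a fold change of 0.28 ± 0.06 (adjusted p 0.0471, edgeR). Each of the 6 fits without 1 library lost that call (adjusted p 0.0577 to 0.254), as did the replicate block (0.0796), limma-voom (0.0578), no filter (0.0652), total counts only (0.128), non-robust dispersions (0.0517) and a fit of the 2 E9.0 groups alone (0.169). Averaged over both stages, Snrnp200 was 0.28 ± 0.05 and Sart1 0.21 ± 0.04 higher (adjusted p 0.00289 and 0.0122, edgeR). Among the alternatives and the fits without 1 library, these averaged calls were lost with total counts only (adjusted p 0.0551 and 0.117). Eftud2 was thus lower, and these U5 and tri-snRNP partners higher, in the same homozygous E9.0 libraries.

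Between stages, 27 of the 51 partner genes fell and 1 rose in homozygous libraries, with a median of −0.21, where 15.8% of all tested genes fell and 19.6% rose. In heterozygous libraries 17 fell, 1 rose and 33 were not called, with a median of −0.10, where 16.0% of all tested genes fell and 19.2% rose. With total counts only these counts turned to 0 falls and 1 rise in homozygous libraries, where 2.90% of all tested genes fell and 19.6% rose, and to 0 falls and 15 rises in heterozygous libraries, where 1.72% fell and 45.4% rose. The partner medians were then −0.04 and 0.26, below all-gene medians of 0.18 and 0.38. With totals without Rn45s there were 18 falls and 2 rises in homozygous libraries (10.9% and 24.6% of all tested genes) and 8 falls and 4 rises in heterozygous libraries (9.01% and 26.9%). The gene that rose was Rp9, a retinitis pigmentosa gene, by 0.29 ± 0.09 in homozygous and 0.53 ± 0.09 in heterozygous libraries (adjusted p 0.0229 and 0.000324, edgeR). The homozygous rise was lost without homozygous E9.0 replicate 1, homozygous E9.5 replicate 1 or homozygous E9.5 replicate 3. Among U5 proteins 4 of 6 fell in homozygous and 0 of 6 in heterozygous libraries, with Ddx23, the helicase that releases U1, at −0.31 ± 0.06 and Snrnp200 at −0.28 ± 0.06 in the former (adjusted p 0.00131 and 0.00317, edgeR). Among U4/U6 and tri-snRNP proteins 4 and 3 of 9 fell, with Prpf3 at −0.53 ± 0.05 in homozygous and Sart1 at −0.44 ± 0.06 in homozygous and −0.30 ± 0.06 in heterozygous libraries. Whether the falls differ between genotypes was tested gene by gene as the difference of the genotype effect between stages, and edgeR called 0 of the 51. DESeq2, totals without Rn45s and the GC and length correction called 1 each, Prpf3. Of the retinal disease genes, 5 of 7 fell and 1 rose between stages in homozygous libraries, and 2 fell and 1 rose in heterozygous ones.

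The counts of the other lists are read against the same shares, 15.8% in homozygous and 16.0% in heterozygous libraries, and in lists of 6 to 10 genes a count of 0 or 1 lies near them. Among the other Sm proteins 5 of 6 fell in homozygous and 3 of 6 in heterozygous libraries. Snrpg fell by 0.49 ± 0.06 in homozygous libraries, and Snrpd3 fell by 0.38 ± 0.06 in homozygous and by 0.42 ± 0.06 in heterozygous libraries. Among SF3B subunits, partners of Sf3b4, 3 and 1 of 6 fell, with Sf3b5 at −0.23 ± 0.08 and Sf3b3 at −0.22 ± 0.06 in homozygous and Sf3b2 at −0.16 ± 0.06 in heterozygous libraries. Among 3′ splice site factors, which work with Puf60, 3 and 4 of 6 fell: U2af1 and U2af2, the U2AF subunits, by 0.40 ± 0.05 and 0.37 ± 0.07 in homozygous libraries, and Sf1, the branch point binding protein, by 0.42 ± 0.09 in heterozygous libraries. Among exon junction genes, which work with Eif4a3, 4 and 5 of 10 fell, with Acin1 at −0.33 ± 0.06 in homozygous and Casc3, a core subunit, at −0.27 ± 0.06 in heterozygous libraries. Among spliceosomal cyclophilins, relatives of Cwc27, 4 and 1 of 7 fell, with Ppil4 at −0.29 ± 0.07 in homozygous and Ppig at −0.27 ± 0.06 in heterozygous libraries. The edgeR adjusted p of these named genes was at most 0.0350.

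**Figure D5:**
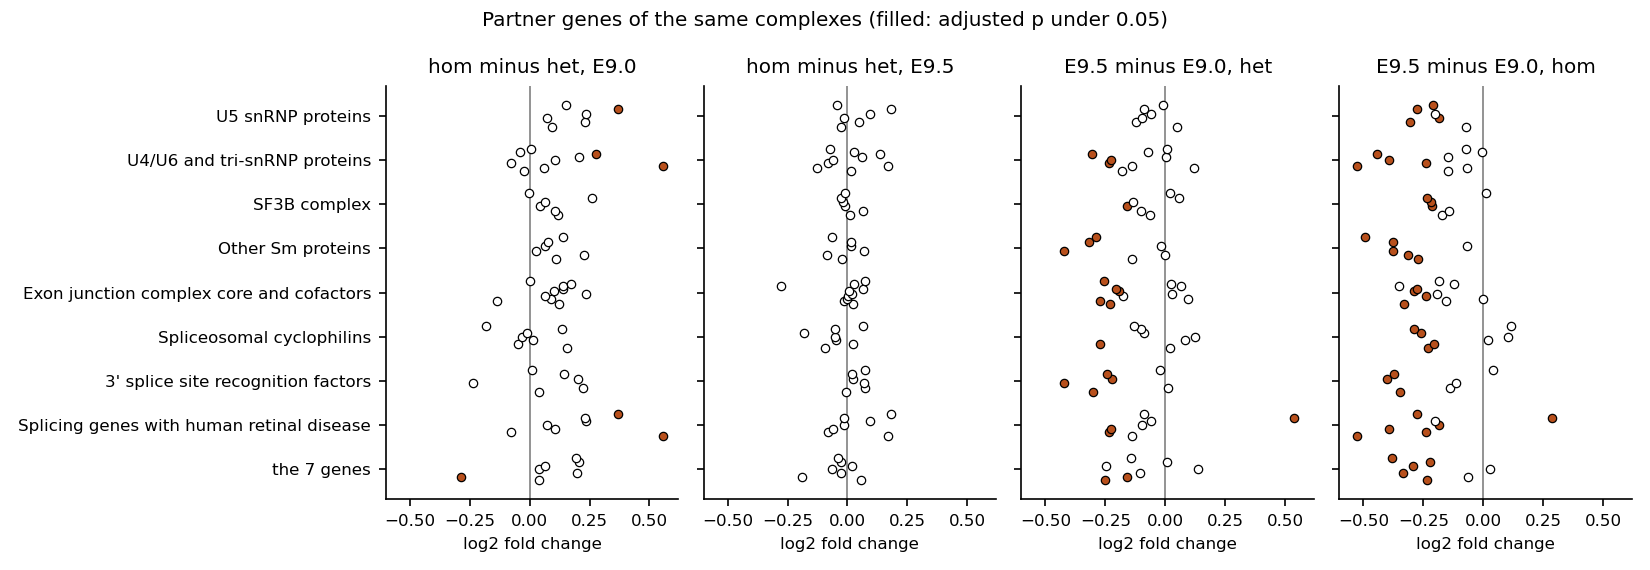
Log2 fold changes of the partner genes of each complex and of the 7 genes (bottom row) in 4 comparisons; each point is 1 gene and filled points passed an edgeR adjusted p of 0.05. At E9.0 the 3 filled partner genes (Prpf3 and Snrnp200 appear in another list as well) lie to the right of 0 and Eftud2 to the left, and most filled points between stages lie to the left.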

How the data were processed

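The authors deposited 1 table of raw counts per gene symbol for the 12 libraries, with no normalization. Per the submitters' processing notes, cutadapt, STAR, featureCounts and MultiQC were used with the mm10 build. Tool versions, gene models and strandedness are not given in the sources used here, so values of overlapping genes and close relatives are uncertain. All 12 columns were matched to samples by the labels.

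Counts went into edgeR 4.0.16 in R 4.3.3 (filterByExpr by group, TMM scaling, robust quasi-likelihood fit with 4 group means, quasi-likelihood F test). Benjamini-Hochberg adjustment ran over 14810 tested genes with a threshold of 0.05, and a gene past it is said to be called. The 9611 rows not tested held at most 0.0778% of the counts of a library. Log2 CPM used a prior count of 2, and standard errors are the fold change over the square root of F. The steps were also run on simulated data as a check of the code. How often changes as small as those described here were recovered is not given. The alternatives were other scaling factors, DESeq2 1.42.0, limma-voom (limma 3.58.1), other filters, no robust estimation, a replicate block, a GC and length correction, only the groups compared, each library left out and an adjusted p under 0.01.

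All 7 genes are named, as are their close copies. Partner genes are named where called between genotypes, or among the 2 largest rises and falls of their list between stages, and these largest stage changes are given in part. Likeness names the 3 nearest genes. The members, partner lists and marker lists were chosen with earlier results of these data known, so no count over them is independent evidence. Symbols were matched to GENCODE M21 (23384 directly, 656 by synonym, 381 unmatched). Promoter sequences are RefSeq's. Txnl4a was left out of the promoter search, so its window is not described.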

Additional observations from a re-analysis of the deposited data

How the results depend on the processing

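The called directions of the 7 genes held under every alternative run, except that Eftud2 and Cwc27 turned to 0.22 and 0.12 between stages in heterozygous libraries with total counts only. With total counts only, 0 of the 7 genes were called at E9.0, 0 averaged over stages and 0 between stages in homozygous libraries, while 2 were called between stages in heterozygous libraries, Snrpb and Puf60 as rises (0.38 and 0.51) in place of Eftud2 and Cwc27, where 45.4% of all tested genes were called as rises. Eftud2 over both stages was −0.13, and 123 genes were called at E9.5 and 3326 between stages in homozygous libraries. The share of all called genes that were higher then moved from 73.6% to 96.2% at E9.0, from 62.9% to 47.2% at E9.5, from 61.5% to 84.8% averaged, from 54.4% to 96.3% between stages in heterozygous and from 55.3% to 87.1% in homozygous libraries. Without Rn45s in the totals it was 86.7% at E9.0, 74.9% and 69.2% between stages in heterozygous and homozygous libraries. Of the 7 genes, 1 was then called between stages in heterozygous libraries (Puf60, as a rise, as were 26.9% of all tested genes). In homozygous libraries 3 were called, as falls, as were 10.9% of all tested genes. Without a filter it was 61.7% at E9.0, with 1 and 3 of the 7 called as falls between stages, as were 8.34% and 8.44% of all tested genes. DESeq2 called 216, 448 and 76 genes (E9.0, E9.5, stage difference) and 2, 1 and 4 of the 7 (E9.0, E9.5, stage in heterozygous). Among the 4, Puf60 was a rise (0.12). Between stages in heterozygous libraries DESeq2 called 18.2% of all tested genes as rises and 17.3% as falls. limma-voom called 51 at E9.0 and 5 for the stage difference. The GC and length correction called 183 at E9.0, 702 averaged and 20 for the stage difference. Of the 7 it called 1 at E9.5, Eftud2 as lower, where 0.972% of all tested genes were called lower. It called 5 between stages in heterozygous libraries, of which Puf60 was a rise (0.13). There 20.2% of all tested genes were called as rises and 19.6% as falls. With only the groups compared, 0 of the 7 were called at E9.0, where 64 genes were. Between stages in heterozygous libraries 1 was called, Cwc27 as a fall, as were 14.7% of all tested genes. An adjusted p under 0.01 left 34, 81, 159, 1, 3324 and 3384 genes (E9.0, E9.5, averaged, stage difference, stage in heterozygous and homozygous) and 0, 1 and 3 of the 7 (E9.0, both stage comparisons). The cause was not tested.

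Leaving out 1 library gave 38 to 86 genes at E9.0 (38 without homozygous replicate 3, 39 without heterozygous replicate 2), 133 to 252 at E9.5, 246 to 411 averaged, 1 to 16 for the stage difference, and 4088 to 4890 and 4060 to 4759 between stages. Of the 7, 0 to 1 were called at E9.0, 0 to 0 at E9.5, 1 to 1 averaged, 0 to 0 for the stage difference, 1 to 3 between stages in heterozygous and 3 to 5 in homozygous libraries. Eftud2 over both stages ranged from −0.25 to −0.22 and its ratio to the other 6 from −0.31 to −0.28 (log2). Per kilobase of the longest transcript the levels were 74.9 for Eftud2, 173 for Snrpb, 152 for Eif4a3, 14.0 for Cwc27 and 115 for Puf60.

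Replicate numbers are shared by the groups, but same-numbered libraries did not deviate together (r of −0.17 to 0.11, and 5 of 18 correlated best with their own number). With the replicate number as a block, 69, 248, 383, 9, 5019 and 5012 genes were called, and 1, 0, 1, 0, 2 and 5 of the 7, as without it. With the block the Sart1 call at E9.0 was lost.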

Other observations

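Sf3b4, chosen here after its values were seen, had its libraries of each E9.0 group in the same order as their share of Rn45s counts. The shares were 37.4%, 15.1% and 12.5% beside 57.4, 47.4 and 40.2 CPM of Sf3b4 in heterozygous replicates 1 to 3, and 13.2%, 6.05% and 16.2% beside 51.3, 45.7 and 53.9 CPM in homozygous replicates 1 to 3. The E9.5 groups, with shares of 4.40% to 5.90%, differed in this: the heterozygous libraries had the same order (4.40%, 5.76% and 5.21% beside 39.2, 41.7 and 40.5 CPM) and the homozygous ones did not (5.01%, 5.21% and 5.90% beside 44.0, 38.2 and 40.8 CPM). With 3 libraries in a group no relation was tested, and replicates have no order in time or dose.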
